A study of Mus musculus with 48 samples.

Results

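The 10 genes described here code for collagens and for proteins that handle them, and they were followed in RNA from mouse cerebral cortex at 3 ages. They comprise 8 collagen genes (Col1a1, Col1a2, Col3a1, Col4a1, Col4a2, Col5a1, Col6a1 and Col11a1), the collagen-binding glycoprotein gene Sparc and the collagen chaperone gene Serpinh1. Each was found in the count table by the Ensembl identifier that the mouse GENCODE annotation pairs with its symbol, and all 10 were present among the 48526 genes of the table. The set was chosen by its CPM, the reads of a gene as a share of all reads that the library counted on genes, in these same libraries, in every fraction and at every age. The values of the 10 genes below are therefore a description, and nothing is inferred from how many of them passed a threshold.

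The libraries came from 12 male wild-type C57BL/6JRj mice, with 4 mice at 3 weeks, 4 at 5 months and 4 at 18 months of age. The sample titles give 6 months for the middle group where the protocol gives 5 months, and the protocol gives 18/19 months for the oldest, so the groups are called 3w, 5m and 18m. From each mouse the total homogenate of the cortex (TH) and synaptosomes (SYN), which are pinched-off nerve endings collected on a sucrose gradient, were each sequenced as input RNA and as RNA pelleted with ribosomes through a sucrose cushion (SC). This gave 4 fractions of 12 libraries, input_TH, SC_TH, input_SYN and SC_SYN, and 48 libraries in all. The labels give no transgene and no treatment for any mouse. An SC pellet holds RNA bound to ribosomes together with whatever else is as heavy, a synaptosome preparation also holds pieces of glia, and neither the homogenate nor the synaptosomes were sorted by cell type. Fewer cells of a type and less RNA per cell cannot be told apart in such samples.

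Collagens are triple-helical proteins of the extracellular matrix. Fibrillar collagens (types I, III, V and XI) assemble into banded fibres, whereas type IV collagen forms the sheet-like network of basement membranes, which in the brain lie around blood vessels and under the pia. Type VI collagen forms beaded filaments beside basement membranes. In the cortex, fibrillar collagen RNA is known mainly from fibroblasts of the meninges and of the perivascular space, type IV collagen RNA from endothelial and mural cells, and Sparc from glia and vessels. SPARC binds collagens and shapes their deposition, and SERPINH1 holds newly made procollagen in the endoplasmic reticulum.

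In GRCm38 the genes lie on 8 chromosomes. Col1a1 (ENSMUSG00000001506) is at chr11:94936224-94953042, Col1a2 (ENSMUSG00000029661) at chr6:4504814-4541544 and Col3a1 (ENSMUSG00000026043) at chr1:45311538-45349706, all on the plus strand. Col5a1 (ENSMUSG00000026837) is at chr2:27886425-28039514 and Col11a1 (ENSMUSG00000027966) at chr3:114030540-114220718, both on the plus strand. Col6a1 (ENSMUSG00000001119) is at chr10:76708792-76726168, Sparc (ENSMUSG00000018593) at chr11:55394500-55423183 and Serpinh1 (ENSMUSG00000070436) at chr7:99345376-99353239, all on the minus strand. Col4a1 (ENSMUSG00000031502, chr8:11198423-11312826, minus strand) and Col4a2 (ENSMUSG00000031503, chr8:11312805-11449287, plus strand) lie head to head and share 22 bases at their starts. Reads were counted over exons without regard to strand, so reads in that overlap, and in the non-coding genes that overlap Col1a2 (Gm43921), Col3a1 (Gm47302), Col4a1 (Gm15418 and Gm44716), Col4a2 (Gm15419) and Col5a1 (2810430I11Rik and Gm13372), cannot be assigned with certainty.

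Promoter windows from 250 bases before to 50 bases after the start that RefSeq gives for each gene were taken for GRCm38.p6, which holds 9 of the 10 genes; Col1a1 is the gene without a window. The RefSeq start can differ from the outermost annotated start given above, and the windows of Col1a2 and Sparc lie inside those gene bounds. The sequences below are those of Col1a2 and Col3a1, whose fold differences with age are described first below, and of the Col4a1 and Col4a2 pair, whose windows share 78 bases. They run 5′ to 3′ on the strand of each gene, and capitals mark 3 short motifs found on either strand. The TATA box was searched as TATAAA. The CCAAT box was searched by the letters of its name. The GC box was searched as GGGCGG. No base of these windows belongs to more than 1 such match.
Col1a2, chr6:4505368-4505667, plus strand: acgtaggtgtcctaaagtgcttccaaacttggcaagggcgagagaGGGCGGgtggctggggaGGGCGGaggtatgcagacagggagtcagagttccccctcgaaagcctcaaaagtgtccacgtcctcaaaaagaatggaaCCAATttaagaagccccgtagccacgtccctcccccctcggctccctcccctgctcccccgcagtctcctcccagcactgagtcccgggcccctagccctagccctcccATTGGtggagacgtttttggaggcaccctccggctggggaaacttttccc
Col3a1, chr1:45311288-45311587, plus strand: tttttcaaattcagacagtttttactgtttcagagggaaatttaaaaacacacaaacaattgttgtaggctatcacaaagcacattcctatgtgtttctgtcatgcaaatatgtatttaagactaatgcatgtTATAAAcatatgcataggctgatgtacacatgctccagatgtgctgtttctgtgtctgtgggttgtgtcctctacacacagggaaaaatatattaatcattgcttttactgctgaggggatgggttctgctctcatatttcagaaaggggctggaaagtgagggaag
Col4a1, chr8:11312777-11313076, minus strand: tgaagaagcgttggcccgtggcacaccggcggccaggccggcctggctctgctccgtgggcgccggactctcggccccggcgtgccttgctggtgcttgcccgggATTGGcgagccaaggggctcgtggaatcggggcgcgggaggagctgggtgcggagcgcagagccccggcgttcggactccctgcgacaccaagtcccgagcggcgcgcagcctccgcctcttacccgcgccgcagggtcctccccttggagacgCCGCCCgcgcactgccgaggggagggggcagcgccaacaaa
Col4a2, chr8:11312555-11312854, plus strand: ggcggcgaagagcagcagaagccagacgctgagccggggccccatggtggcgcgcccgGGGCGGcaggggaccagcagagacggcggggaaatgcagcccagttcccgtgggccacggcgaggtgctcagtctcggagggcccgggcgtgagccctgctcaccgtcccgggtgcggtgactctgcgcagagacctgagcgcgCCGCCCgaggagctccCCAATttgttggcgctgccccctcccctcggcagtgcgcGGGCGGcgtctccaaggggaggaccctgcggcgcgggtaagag

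The windows differ in base composition. The Col3a1 window is 37.7% G or C with 0 CpG dinucleotides, against a median of 52.7% over all 32851 windows of the table, while the Col4a1 and Col4a2 windows are 74.0% and 73.7% G or C with 37 and 33 CpG dinucleotides. Col1a2 lies between them at 61.0%. Of the 9 members with a window, 1 (Col3a1) held a TATA box, 4 a CCAAT box and 6 a GC box, whereas 13.6%, 37.4% and 35.7% of all windows held them. A match of letters is not a binding site.

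Library totals ran from 1780267 to 18590040 counted reads, with input_SYN the shallowest fraction (1780267 to 7879536) and input_TH the most even (9699909 to 13225435). The depth limits the low genes most: Col3a1 rested on 5 to 22 reads per library in input_SYN at 18m and on 6 to 11 at 5m, but on 164 to 358 in input_TH at 3w. In a chi-square comparison over 72 pairs of replicate libraries, the squared difference per gene averaged 1.98 to 32.2 times the variance from counting alone. No pair therefore agreed within sampling noise.

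One library stood apart, the input_TH library of mouse 191 in the 5m group. All 10 genes were higher there than in the other 3 mice of the group, by 1.16 times (Col11a1) to 7.46 times (Col3a1) their median. The SC_SYN library of the same mouse was also above its 3 companions for all 10 genes, by 1.15 to 2.54 times, while its SC_TH library was above them for 3 genes only (0.836 to 1.28 times). In the input_TH library, 13 markers of leptomeningeal and perivascular fibroblasts summed to 683 CPM against 119 to 145 in the other 3 mice, markers of pericytes and smooth muscle to 595 against 218 to 250, and endothelial markers to 688 against 467 to 476. In the SC_TH library of the mouse the fibroblast markers summed to 148 CPM, inside the 123 to 174 of the others, and in its SC_SYN library to 163 against 110 to 117. Their part in the collagen values of these libraries was not tested. For the 10 genes, the log2 fold changes with age in input_TH printed below include values without mouse 191. Ratios within a mouse and most values of single other matrix genes keep that mouse.

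**Figure D1:**
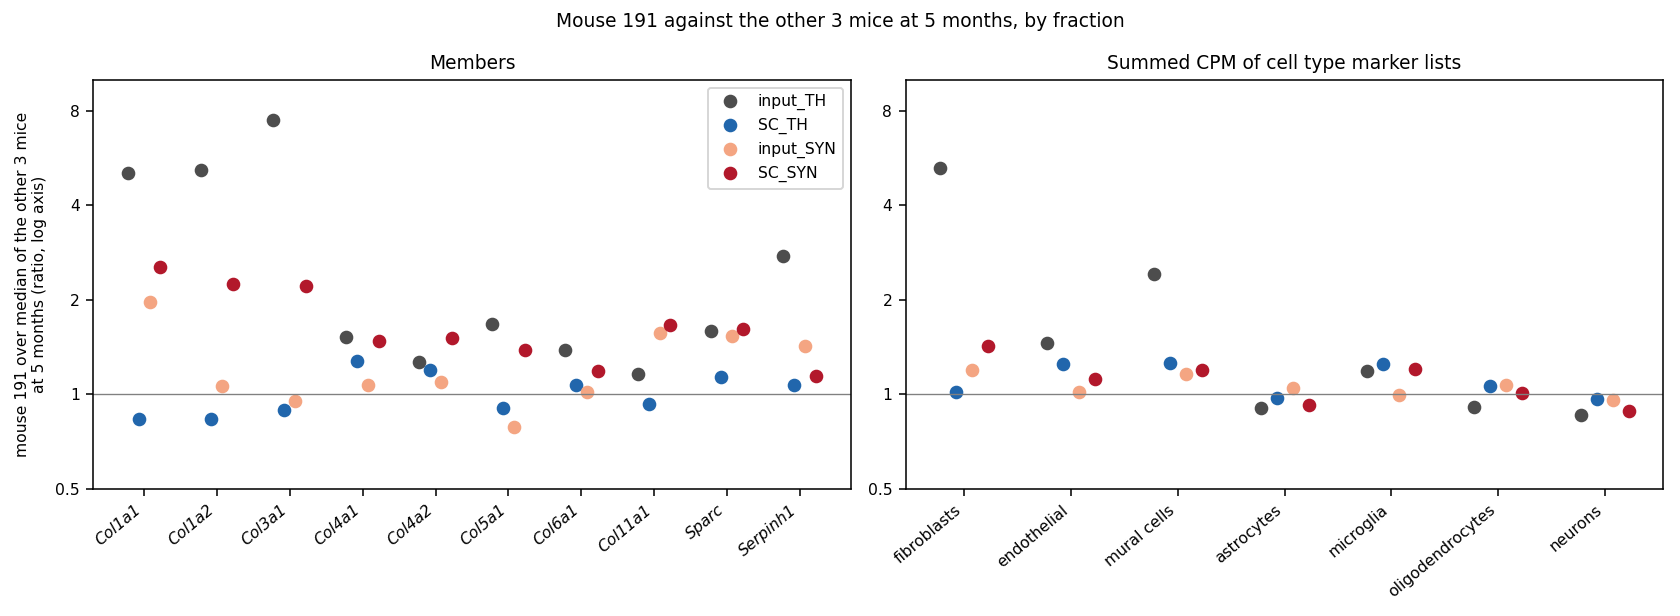
Ratio of mouse 191 to the median of the other 3 mice at 5m, for each of the 10 genes (left) and for the summed CPM of cell type marker lists (right), on a log axis with 1 point per fraction. In input_TH the ratio was 7.46 for Col3a1, 5.20 for Col1a2 and 5.07 for Col1a1, and 5.24 for the fibroblast marker list, while the SC_TH points stayed between 0.836 and 1.28 for the 10 genes.

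Levels of different genes were compared per length, as RPKM, which is CPM divided by the annotated exon length of the gene in kilobases. In input_TH at 3w, Sparc stood highest at 51.8 ± 7.4 RPKM (SD, n = 4), followed by Col4a2 at 19.9 ± 1.4 and Col4a1 at 16.8 ± 1.0. Col1a1 (12.9 ± 1.9) and Col6a1 (12.7 ± 1.7) did not differ beyond their spread, and below them came Serpinh1 at 9.43 ± 1.5, Col5a1 at 6.91 ± 0.61 and Col1a2 at 5.09 ± 0.85. Col3a1 (2.02 ± 0.50) and Col11a1 (1.64 ± 0.13) were the lowest and overlapped. The type IV chains stood above the fibrillar chains in input_TH, whereas in SC_TH at 3w Col1a1 (14.3 ± 2.8) stood with Col4a2 (11.8 ± 2.1) and Col4a1 (11 ± 1.5) within the spread. In SC_SYN at 18m the order was Sparc at 192 ± 24 RPKM, Col4a2 at 10.7 ± 1.6, Serpinh1 at 8.61 ± 2.6, Col6a1 at 4.78 ± 1.1, Col4a1 at 4.27 ± 0.51 and Col1a1 at 4.14 ± 0.77, with the last 3 within each other's spread. Col1a2 followed at 2.77 ± 0.46, and Col5a1 (0.781 ± 0.20), Col11a1 (0.363 ± 0.069) and Col3a1 (0.237 ± 0.047) closed it. The length is that of all annotated exons of a gene together, 12426 bases for Col1a2 against 6563 for Col1a1, so a gene whose main transcript leaves out long exons is understated.

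Col1a1 and Col3a1 had the most negative log2 fold changes of the 10 genes for 5m against 3w in every fraction. Col1a1 codes for the α1 chain of type I collagen, the main fibre-forming collagen. In SC_TH it measured 110, 71.8, 85.7 and 108 CPM in the 4 mice at 3w, 25.4, 27.0, 30.3 and 31.2 at 5m, and 23.7, 24.2, 24.0 and 38.8 at 18m. All 3w libraries lay above all later ones, and the 2 later groups overlapped. The log2 fold change of 5m against 3w, from an edgeR fit with TMM scaling, was -1.69 ± 0.16 (SE) in SC_TH, and that of 18m against 5m was -0.02 ± 0.16. The same step was seen in input_SYN, where the 3w libraries held 60.5 to 97.2 CPM and the 5m libraries 16 to 33.8 (log2 fold change -1.69 ± 0.24), and in SC_SYN, where 81.7 to 135 CPM at 3w stood against 25.6 to 78.8 at 5m (-1.23 ± 0.28). At 18m Col1a1 measured 13.4 to 28.9 CPM in input_SYN and 21.4 to 31.7 in SC_SYN.

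In input_TH the 3w mice held 101, 70.2, 84.8 and 82.1 CPM of Col1a1. The 5m mice held 117 CPM in mouse 191 and 17.4, 23.0 and 24.5 in the other 3, and the 18m mice 37.0, 27.8, 28.7 and 33.1. Mouse 191 alone therefore made the 3w and 5m groups overlap. With it the log2 fold change of 5m against 3w was -0.96 ± 0.39, and without it -2.0. The difference of 18m against 5m turned from -0.45 with mouse 191 to 0.58 without it, since all 4 old mice lay above the 3 remaining 5m mice.

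Col1a2, which codes for the α2 chain of the same collagen, showed smaller differences than Col1a1. It measured 70.0, 57.5, 64.9 and 67.7 CPM in SC_TH at 3w, 31.0, 36.1, 43.2 and 37.1 at 5m, and 22.9, 27.3, 25.7 and 41.3 at 18m, with a log2 fold change of 5m against 3w of -0.80 ± 0.15. The 3w libraries again lay above all others. In input_SYN the values were 48.9 to 67.4 CPM at 3w, 26.2 to 40.4 at 5m and 16.5 to 34.0 at 18m (-0.74 ± 0.19 for 5m against 3w). In SC_SYN mouse 191 at 97.1 CPM lay above every 3w library (68.7 to 85.3), while the other 5m mice held 42.8 to 51.5, and the log2 fold change was -0.37 ± 0.23 with mouse 191 and -0.73 without it. In input_TH mouse 191 at 146 CPM exceeded all 3w mice (55.3 to 78.2), and the other 5m mice held 21.6 to 30.4. There the log2 fold change was -0.23 ± 0.41 with mouse 191 and -1.28 without it.

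Col3a1, the chain of type III collagen that runs with type I in elastic tissue and vessel walls, showed the largest fold difference of the set. In SC_TH it stood at 21.5, 13.2, 15.2 and 18.3 CPM at 3w, 2.67, 3.00, 3.83 and 2.65 at 5m, and 1.79, 2.70, 1.48 and 3.83 at 18m. The log2 fold change of 5m against 3w was -2.46 ± 0.24, the 2 groups did not come near each other, and 5m and 18m overlapped. In input_SYN 7.43 to 18.0 CPM at 3w stood against 2.30 to 2.91 at 5m (-2.11 ± 0.30), and in SC_SYN 14.2 to 24.3 against 3.29 to 7.32 (-2.0 ± 0.26). In input_TH mouse 191 held 34.8 CPM, above all 3w mice (16.2 to 27.1), and the other 5m mice 2.68 to 6.97. The log2 fold change there was -0.77 ± 0.48 with mouse 191 and -2.08 without it, against -2.0 to -2.46 in the other 3 fractions.

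**Figure D2:**
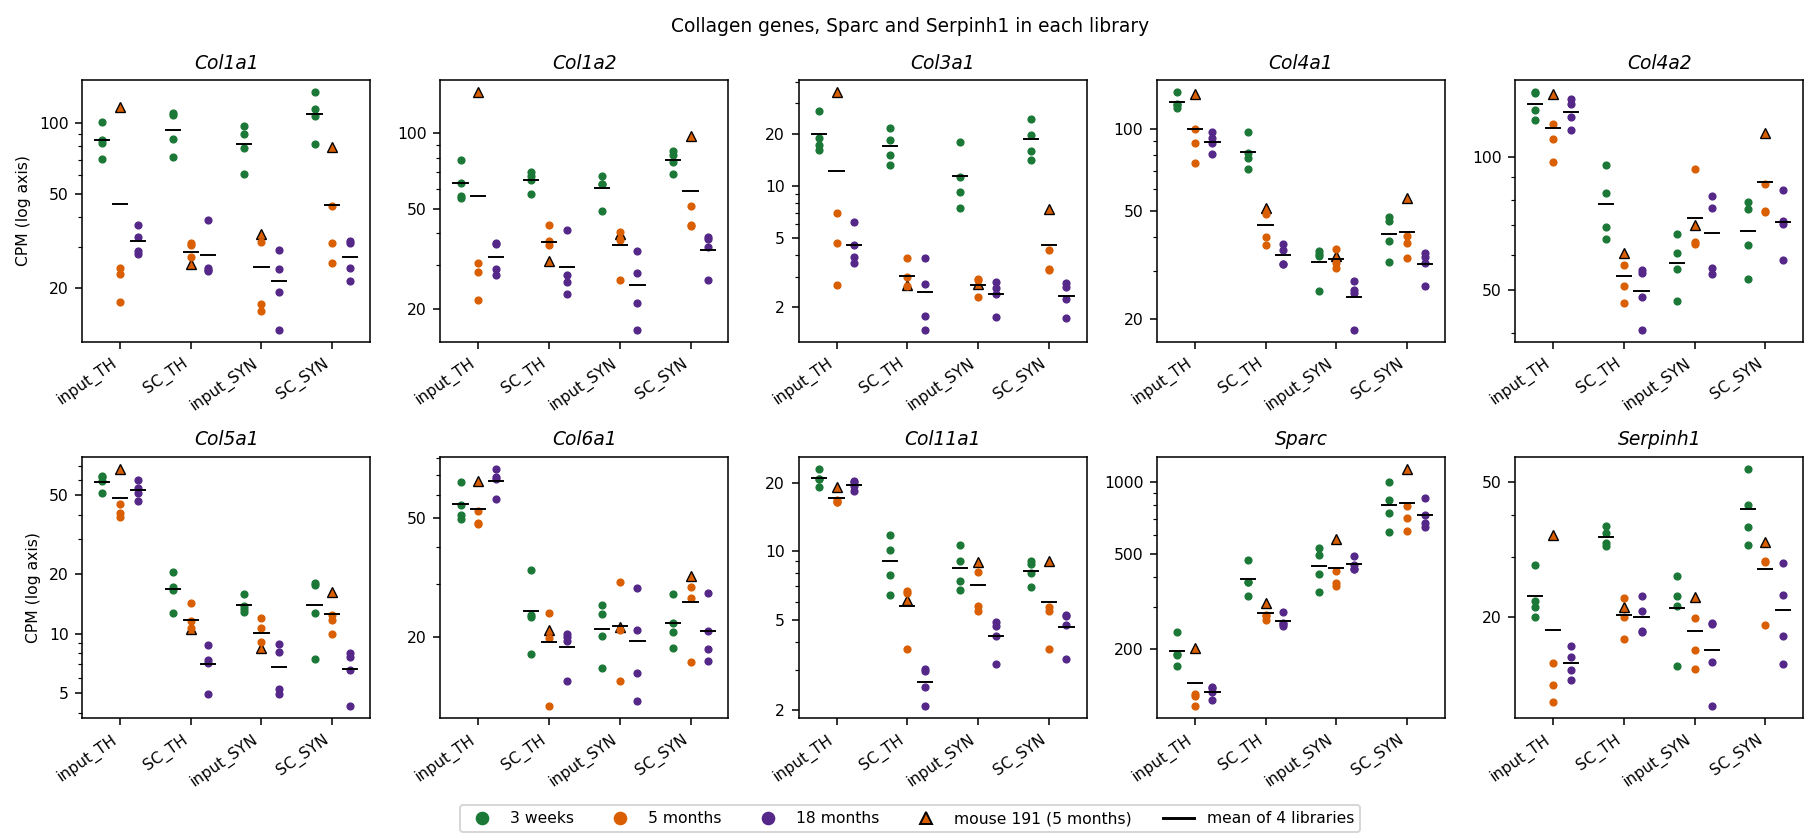
CPM on a log axis of each of the 10 genes in all 48 libraries, by fraction and age, with the mean of 4 libraries as a bar and mouse 191 as a triangle. For Col1a1 and Col3a1 the 3w libraries lie above the 5m and 18m libraries in every fraction once mouse 191 in input_TH is set aside, while for Sparc the position of the fraction outweighs age, from 115 CPM in input_TH to 1136 in SC_SYN.

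The minor fibrillar chains, Col5a1 and Col11a1, followed a different course. Type V and type XI collagens lie inside the fibres of the major types and limit their width. Col5a1 in SC_TH measured 12.8 to 20.6 CPM at 3w, 10.5 to 14.4 at 5m and 4.97 to 8.75 at 18m, so that 3w and 5m overlapped while every 18m library lay below every 5m library. The log2 fold change was -0.49 ± 0.18 for 5m against 3w and -0.71 ± 0.17 for 18m against 5m. In input_TH it measured 51.2 to 62.4 CPM at 3w and 47.0 to 60.1 at 18m. At 5m mouse 191 held 68.1 CPM and the other mice 39.0 to 45.3, below every 3w and 18m library. Without mouse 191 the input_TH log2 fold change was -0.53 for 5m against 3w and 0.39 for 18m against 5m.

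Col11a1 in SC_TH measured 6.38 to 11.75 CPM at 3w, 3.72 to 6.68 at 5m and 2.08 to 3.04 at 18m, with a log2 fold change of -0.61 ± 0.22 in the first interval and -1.09 ± 0.22 in the second. In input_TH it held 19.1 to 23.0 CPM at 3w, 16.4 to 19.1 at 5m and 18.3 to 20.3 at 18m. Every 5m library of input_TH lay below every 3w library. Without mouse 191 its log2 fold change was -0.38 for 5m against 3w and 0.28 for 18m against 5m. From 3w to 18m the homogenate went from a mean of 20.9 ± 1.6 CPM to 19.5 ± 0.91. The ribosome pellet of the same mice went from 9.03 ± 2.4 CPM to 2.65 ± 0.44. In the same mice the SC over input ratio of Col11a1 in TH was 0.438 ± 0.13 (SD, n = 4) at 3w, 0.336 ± 0.082 at 5m and 0.136 ± 0.017 at 18m, and that of Col5a1 was 0.288 ± 0.058, 0.259 ± 0.081 and 0.134 ± 0.035. At 5m the Col5a1 ratios ran from 0.155 in mouse 191, whose input_TH library stood apart, to 0.352. Without mouse 191 the log2 fold change of Col5a1 for 5m against 3w differed by 0.09 between SC_TH and input_TH. The difference of the ratios of both genes between 5m and 18m was not tested. In SC_SYN, Col5a1 went from 14 ± 4.9 CPM at 3w to 6.63 ± 1.7 at 18m and Col11a1 from 8.20 ± 0.94 to 4.62 ± 0.88.

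The α1 and α2 chains of type IV collagen, Col4a1 and Col4a2, are built into 1 protomer and are read from the shared promoter region shown above. In SC_TH, Col4a1 measured 97.3, 71.2, 81.8 and 78.5 CPM at 3w, 51.2, 48.9, 37.5 and 40.1 at 5m, and 31.9, 35.9, 31.8 and 37.7 at 18m. All 3w libraries lay above all 5m libraries (log2 fold change -0.86 ± 0.11), and 5m and 18m met at 37.5 to 37.7 CPM. Col4a2 in SC_TH held 65.1 to 95.5 CPM at 3w and 46.7 to 60.7 at 5m (-0.52 ± 0.13), with 40.6 to 55.3 at 18m. In input_TH both chains differed less, by -0.39 ± 0.12 for Col4a1 and -0.24 ± 0.09 for Col4a2, and without mouse 191 by -0.56 and -0.32.

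In the synaptosomes the type IV chains were not lower at 5m than at 3w. Col4a1 in input_SYN measured 25.5 to 35.6 CPM at 3w and 30.9 to 36.2 at 5m (log2 fold change 0.03 ± 0.15), and in SC_SYN 32.5 to 47.6 and 33.5 to 56.0 (0.07 ± 0.17). Col4a2 measured 47.2 to 66.8 CPM at 3w and 63.5 to 93.8 at 5m in input_SYN (0.34 ± 0.17), and 52.8 to 78.9 and 75.0 to 113 in SC_SYN (0.42 ± 0.17). The groups overlapped in each of these 4 cases. Without mouse 191 the SC_SYN values were -0.10 for Col4a1 and 0.26 for Col4a2, neither called. The difference between the SC_SYN and SC_TH age effects was 0.96 ± 0.21 on the log2 scale for Col4a1 and 0.95 ± 0.23 for Col4a2, and 0.86 for both without mouse 191. Neither difference was called by edgeR, and without mouse 191 its adjusted p was 0.151 for Col4a1 and 0.211 for Col4a2. With the mouse as a block in edgeR, Col4a1 was called (adjusted p = 0.0292) and Col4a2 was not (0.0741).

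Col6a1, the α1 chain of type VI collagen, overlapped between 3w and 5m in every fraction. In input_TH it measured 49.7 to 66.0 CPM at 3w, 47.9 to 66.5 at 5m and 58.0 to 73.3 at 18m, and the log2 fold change of 18m against 5m was 0.37 ± 0.11, or 0.47 without mouse 191. In SC_TH it held 17.6 to 33.5, 11.7 to 24.1 and 14.2 to 20.4 CPM at the 3 ages, and in the 2 synaptosomal fractions all ages overlapped within 12.2 to 32.1 CPM.

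Sparc, whose product binds collagen, had the highest level of the set in every fraction. In SC_TH it measured 470, 381, 382 and 335 CPM at 3w, 311, 275, 278 and 264 at 5m, and 286, 257, 254 and 250 at 18m, so that every 3w library lay above every later one (log2 fold change of 5m against 3w -0.45 ± 0.09). In input_TH the 3w mice held 169 to 236 CPM, mouse 191 held 202 and the other 5m mice 115 to 130 (-0.50 ± 0.13, and -0.70 without mouse 191). In the synaptosomes no such step appeared, with 345 to 532 CPM at 3w, 369 to 579 at 5m and 432 to 491 at 18m in input_SYN (-0.03 ± 0.15 for 5m against 3w). In SC_SYN the 3w mice held 616 to 996 CPM, the 5m mice 625 to 1136 and the 18m mice 650 to 854 (0.08 ± 0.18). Mouse 191 was the highest 5m library for Sparc in input_SYN and in SC_SYN. Without it the log2 fold changes of 5m against 3w were -0.19 and -0.14, neither called.

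Serpinh1, the procollagen chaperone, measured 33.0, 32.4, 35.4 and 37.0 CPM in SC_TH at 3w, 21.4, 22.7, 17.2 and 19.9 at 5m, and 18.1, 20.8, 18.1 and 23.0 at 18m. The 3w libraries stood clear of the rest, with a log2 fold change of 5m against 3w of -0.74 ± 0.11. In SC_SYN it held 32.6 to 54.7 CPM at 3w, 19.0 to 33.3 at 5m and 14.5 to 28.8 at 18m (-0.54 ± 0.22), and in input_SYN 14.3 to 26.3, 14.1 to 22.9 and 10.9 to 19.2. In input_TH mouse 191 at 34.8 CPM lay above the 3w mice (19.9 to 28.5), while the other 5m mice held 11.3 to 14.6. The log2 fold change there was -0.40 ± 0.25 with it and -0.90 without.

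**Figure D3:**
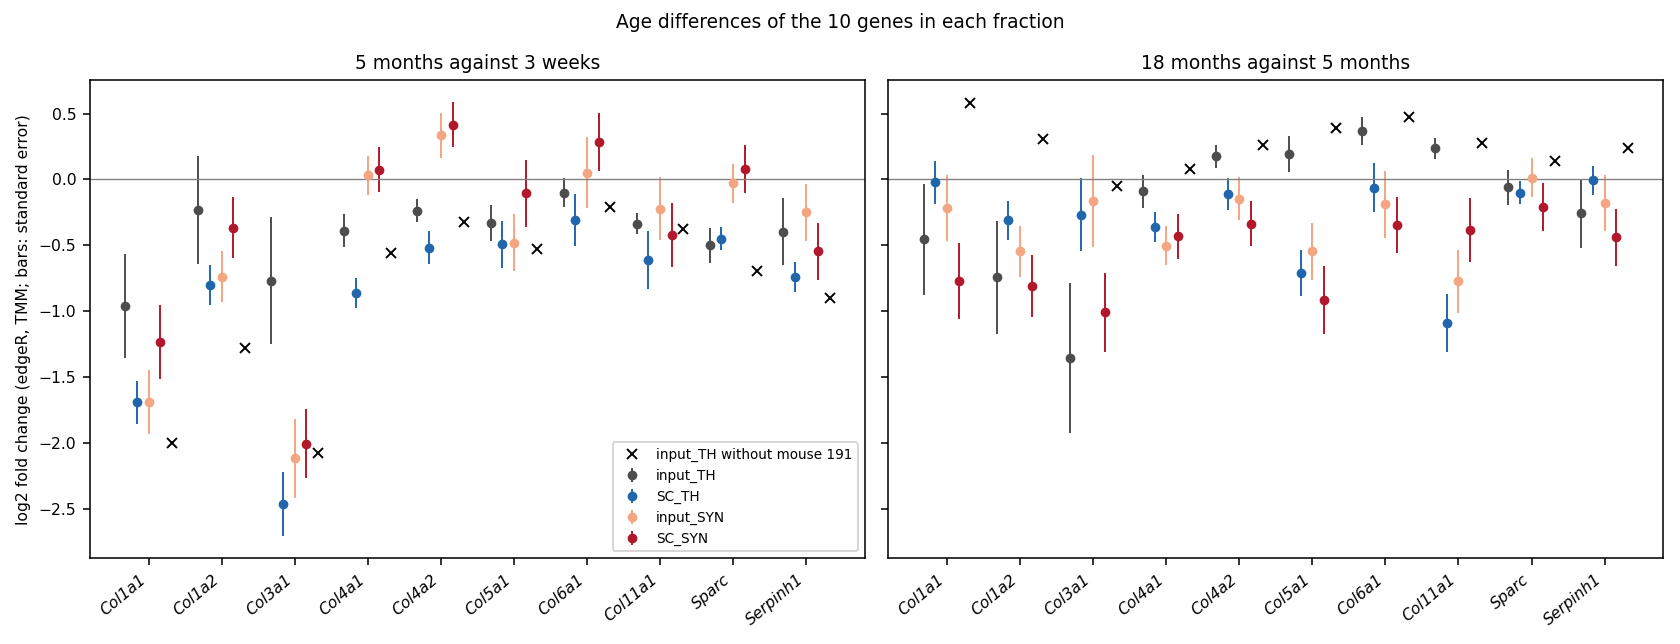
log2 fold change (edgeR, TMM scaling) of the 10 genes for 5m against 3w (left) and 18m against 5m (right) in the 4 fractions, with bars for the standard error and crosses for input_TH without mouse 191. On the left Col1a1 and Col3a1 lie between -0.77 and -2.46, and on the right most input_TH crosses lie above 0 while the 10 SC_TH points run from -0.01 to -1.09.

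Counted against all genes, the age comparisons stood as follows. A gene was called when its adjusted p in edgeR's quasi-likelihood test (Benjamini-Hochberg over all genes tested) was under 0.05. For 5m against 3w, 7 of the 10 genes were called in SC_TH, all lower, where 17.9% of 16427 genes were called in either direction. In input_TH 3 were called, all lower (Col4a1, Col11a1 and Sparc), against 11.8% of 18078 genes, and 9 without mouse 191, against 12.1%. In input_SYN 3 were called (Col1a1, Col1a2 and Col3a1, all lower, and 2 without mouse 191), against 3.22% of 12975 genes. In SC_SYN 2 were called (Col1a1 and Col3a1, both lower), against 8.05% of 14240. Without mouse 191 Col1a1 (-1.65), Col1a2 (-0.73) and Col3a1 (-2.31) were called lower in SC_SYN, and Sparc (-0.14) and Col4a1 (-0.10) were not called. The median log2 fold change of the 10 genes was -0.68 in SC_TH, -0.36 in input_TH and -0.24 in both synaptosomal fractions, where the median of all genes lay between -0.01 and 0.01.

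Every 5m library lay below every 3w library for 7 of the 10 genes in SC_TH, 4 in input_SYN, 2 in SC_SYN and 1 (Col11a1) in input_TH. The same held for 9.81%, 6.71%, 11.5% and 7.04% of all genes tested in those fractions. Since the genes were picked with these values known, these counts add no support to the differences.

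For 18m against 5m, which uses the same 5m libraries, 1 of the 10 genes was called in input_TH (Col6a1, higher), against 15.5% of all genes. Without mouse 191 5 were called, all higher (Col1a1, Col4a2, Col5a1, Col6a1 and Col11a1), against 18.2%. In SC_TH 2 were called (Col5a1 and Col11a1, both lower), against 2.17%. In input_SYN edgeR called 0 of the 10 (4 at an unadjusted p under 0.05, 0 by DESeq2), against 0.139% of all genes. In SC_SYN edgeR called 0 (5 unadjusted, 3 by DESeq2), against 0.014%. Over all genes, 1214 of 12975 in input_SYN and 2474 of 14240 in SC_SYN had an unadjusted p under 0.05. All 10 log2 fold changes were negative in SC_SYN, with a median of -0.44, and without mouse 191 9 were negative with a median of -0.29.

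The fractions were compared over the mean of the 3 ages. Sparc was the gene most shifted towards synaptosomes: the mean log2 fold change over the 3 ages of input_SYN against input_TH was 2.12 ± 0.09, and that of SC_SYN against SC_TH 1.90 ± 0.09. In CPM, Sparc in input_SYN was 2.27 ± 0.26 times its level in input_TH of the same mouse at 3w, 3.07 ± 0.22 times at 5m and 3.40 ± 0.25 times at 18m. Serpinh1 was higher by 0.64 ± 0.15 in input_SYN with TMM scaling and by 0.03 with library totals. The chains of types IV, V, VI and XI were lower there. Col5a1 stood at -1.79 ± 0.11, Col4a1 at -1.19 ± 0.08 and Col11a1 at -0.97 ± 0.09. Col6a1 stood at -0.86 ± 0.12 and Col4a2 at -0.31 ± 0.08. Col1a1 (0.15 ± 0.23) and Col1a2 (0.26 ± 0.22) rested on the library of mouse 191, and without that 1 library they stood at 0.49 and 0.61. Col3a1 stood at -0.65 ± 0.35 with that library and -0.21 without it. With the mouse as a block and the library kept, Col1a2 (0.36) and Col3a1 (-0.60) passed the threshold, and so did Col4a1 (0.15) between the pellets.

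In the ribosome pellets the same 5 chains were not lower in synaptosomes with TMM scaling, whereas with library totals Col4a1 was called lower at -0.40 and Col5a1 stood at -0.073, not called. With TMM, SC_SYN against SC_TH gave 0.94 ± 0.12 for Col1a2, 0.89 ± 0.09 for Col4a2, 0.84 ± 0.14 for Col1a1, 0.81 ± 0.10 for Serpinh1, 0.79 ± 0.14 for Col11a1, 0.75 ± 0.16 for Col3a1, 0.72 ± 0.13 for Col6a1, 0.48 ± 0.13 for Col5a1 and 0.16 ± 0.09 for Col4a1. These values depend on the scaling. With library totals in place of TMM the median of all genes moved from -0.17 to -0.77 for the inputs and from -0.08 to -0.63 for the pellets, and Sparc stayed at 1.34 in the pellets. Col1a1 and Col1a2 turned negative in the inputs (-0.46 and -0.35) under that scaling. The 10 genes counted 2 higher and 5 lower calls in the inputs with TMM (1 and 6 with library totals, 4 and 5 without mouse 191), against 84.1% of all genes called in either direction, and 9 higher and 0 lower in the pellets (4 and 1 with library totals), against 79.2%.

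**Figure D4:**
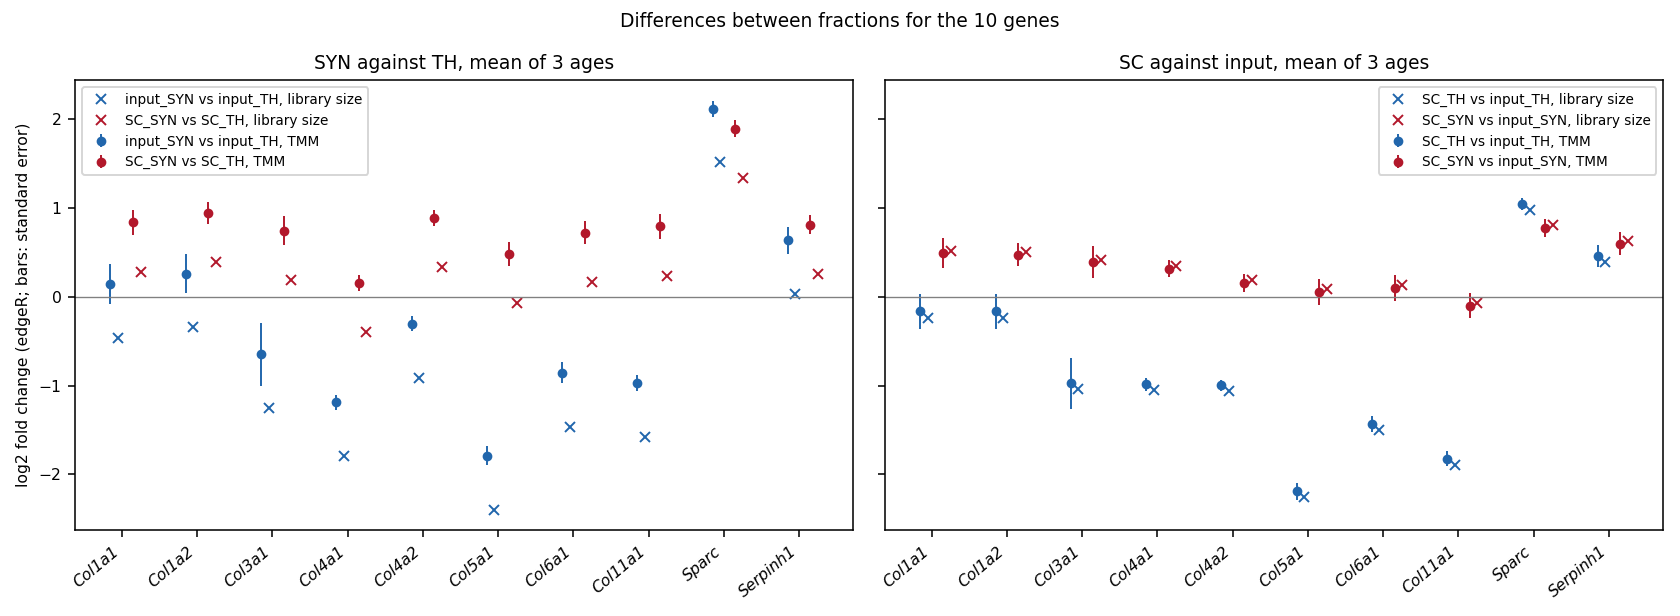
log2 fold change over the mean of 3 ages of the 10 genes between SYN and TH (left) and between SC and input (right), with TMM scaling as points with standard errors and library totals as crosses. Sparc stands highest in both panels (2.12 and 1.90 on the left), and the 2 scalings differ far more on the left than on the right.

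Comparing the pellet with the input of the same preparation gives a gene's level in the pellet relative to its level in the input, each scaled to its library. This ratio is not the portion of a gene's RNA that was bound to ribosomes. The protocol also describes a spin of the TH lysates before the cushion that it does not describe for synaptosomes. In TH, Sparc was higher in SC than in input by 1.05 ± 0.07 on the log2 scale and Serpinh1 by 0.46 ± 0.12. The collagen chains stood on the other side: Col5a1 at -2.19 ± 0.09, Col11a1 at -1.83 ± 0.09, Col6a1 at -1.43 ± 0.09, Col4a2 at -1.0 ± 0.06, Col4a1 at -0.99 ± 0.07 and Col3a1 at -0.97 ± 0.29, the last -0.54 without the input_TH library of mouse 191. Col1a1 (-0.17 ± 0.20) and Col1a2 (-0.16 ± 0.20) were near 0, and without mouse 191 at 0.20 and 0.22. In the synaptosomes the ratios were closer to 0 or above it, with Sparc at 0.77 ± 0.10, Serpinh1 at 0.60 ± 0.13, Col1a1 at 0.49 ± 0.17, Col1a2 at 0.48 ± 0.13, Col3a1 at 0.39 ± 0.18 and Col4a1 at 0.32 ± 0.09, and with Col4a2, Col5a1, Col6a1 and Col11a1 between -0.10 and 0.16. In TH 2 of the 10 genes were called higher and 6 lower, against 75.8% of all genes, and without mouse 191 4 higher (Col1a1 and Col1a2 added) and 6 lower, against 75.4%. Without only its input_TH library the counts were 2 and 6. In SYN 5 were called higher and 0 lower, against 43.2%.

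Whether the 5m against 3w difference itself differed between fractions was fitted as an interaction. Between SYN and TH inputs edgeR called 0 of the 10 genes (3 at an unadjusted p under 0.05, 0 by DESeq2), against 0.0224% of all genes. Between SYN and TH pellets it called 0 (3 unadjusted, 2 by DESeq2), against 0.0301%. With the mouse as a block Col4a1 was called there at 0.95. Between SC and input in TH it called 0 (2 unadjusted, 0 by DESeq2), against 2.33%, and with the mouse as a block Col4a1 was called at -0.49. Between SC and input in SYN it called 0 (0 unadjusted, 0 by DESeq2), against 0% of 14301 genes. An unadjusted p under 0.05 was found for 1437 of 17860 genes between inputs and 1324 of 16630 between pellets. Between SC and input it was found for 4027 of 18416 genes in TH and 473 of 14301 in SYN.

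Across the 48 libraries, each fraction centred on its own mean, the 10 genes did not follow 1 course. Col1a1 and Col3a1 ran closest together (Pearson r = 0.94 on log2 CPM), then Col1a1 and Col1a2 (0.92), and the lowest pair was Col6a1 and Serpinh1 (0.24), with a median of 0.64 over all pairs. Against the mean of the 10, Col1a1 had the highest r (0.95) and Col6a1 the lowest (0.46). Among 12887 genes tested in all fractions, the 10 outside the set that ran closest to its mean were Eln (r = 0.91), Mmp15 (0.88), Emid1 (0.88), Hspg2 (0.87), Marcksl1 (0.86), Col4a5 (0.86), Nid1 (0.86), Ncan (0.85), Tnc (0.85) and Bmp1 (0.85). The libraries share mice, ages and depth, and mouse 191 is among the points, so these values only describe likeness.

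Other matrix genes, outside the 10, were examined in the same fits through 9 lists with 135 genes in all. The lists of these genes too were written with earlier results of these data known, so their counts are a description. For 5m against 3w, 8 of these genes rose and 33 fell of 120 tested in SC_TH, where 17.9% of all genes were called. In input_TH 12 rose and 20 fell of 126, against 11.8% of all genes called, and without mouse 191 8 rose and 41 fell of 127, against 12.1%. In input_SYN 6 rose and 8 fell of 97, against 3.22%, and in SC_SYN 12 rose and 15 fell of 111, against 8.05%. The median log2 fold change of the tested matrix genes was -0.17 in SC_TH and between -0.08 and 0.01 in the other fractions.

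Among the other fibrillar collagens 1 rose and 2 fell of 6 tested in SC_TH, and Col27a1, a fibrillar chain, rose in SC_SYN by 0.99 ± 0.23 (adjusted p = 0.0171, edgeR). Of the other basement membrane collagens 3 of 5 fell and 0 rose in SC_TH. In input_TH 1 of 6 fell, Col15a1, a collagen of vascular basement membranes, by -0.71 ± 0.13 (adjusted p = 0.00153, edgeR). Of the remaining collagens 7 of 19 fell and 0 rose in SC_TH. Col9a3, a chain of type IX collagen that sits on fibre surfaces, fell there by -1.64 ± 0.15 (from 39.9 ± 1.9 to 12.6 ± 2.0 CPM, n = 4) and in input_SYN by -1.44 ± 0.18. Col22a1, a collagen of tissue junctions, fell in input_TH by -0.98 ± 0.22.

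Basement membrane partners counted 1 higher and 5 lower of 17 in SC_TH. Nid2, which links laminin to type IV collagen, fell by -1.25 ± 0.17, from 13.1 ± 2.2 to 5.39 ± 1.1 CPM. Npnt, a basement membrane ligand of integrins, fell in input_TH (-0.78 ± 0.10), input_SYN (-0.96 ± 0.16) and SC_SYN (-0.93 ± 0.13). Tinagl1, a basement membrane glycoprotein, rose in input_TH by 1.18 ± 0.34, which without mouse 191 was 0.57 and no longer past the threshold. Lama3, a laminin chain, rose in SC_SYN by 1.16 ± 0.21.

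In the list of small proteoglycans and interstitial matrix, 2 rose and 4 fell of 18 in SC_TH. Eln, the gene of elastin, was not called in input_TH with mouse 191 kept (0.19 ± 0.53), where the 5m libraries ran from 10.1 to 111.5 CPM against 26.0 to 42.8 at 3w. Without the input_TH library of mouse 191, the difference between its SC_TH and input_TH age effects went from -2.82 to -1.30. The contrast with SC_TH therefore depended on that library. Eln fell in SC_TH by -2.61 ± 0.22 (40.2 ± 12.8 to 6.53 ± 1.7 CPM), in input_SYN by -1.57 ± 0.21 and in SC_SYN by -1.97 ± 0.24. Prelp, a small leucine-rich proteoglycan that anchors basement membranes to collagen, went the other way and rose in input_TH (1.14 ± 0.25), SC_TH (0.96 ± 0.20), input_SYN (1.82 ± 0.24) and SC_SYN (1.87 ± 0.28). Fbln1, which binds elastic fibres and basement membranes, rose in SC_TH by 0.92 ± 0.18.

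Genes of collagen synthesis and crosslinking moved both ways, with 1 rising and 5 falling of 29 in SC_TH and 4 each way of 29 in SC_SYN. P4ha1, a subunit of the prolyl hydroxylase that stabilises the triple helix, rose in input_SYN by 0.63 ± 0.16 (59.2 ± 3.6 to 90.6 ± 9.5 CPM). Of the SPARC family 2 rose and 0 fell of 7 in SC_TH. Smoc2 rose there by 0.68 ± 0.13 and in input_SYN by 0.74 ± 0.18. Of the collagen receptors 1 rose and 3 fell of 9 in SC_TH, and Itga10, a collagen-binding integrin chain, rose in input_TH by 0.99 ± 0.23. Of the genes of collagen turnover 4 of 10 fell and 0 rose in SC_TH, and Ctsk, a collagen-degrading cathepsin, fell in SC_SYN from 11.7 ± 1.2 to 2.30 ± 0.57 CPM (-2.27 ± 0.22).

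**Figure D5:**
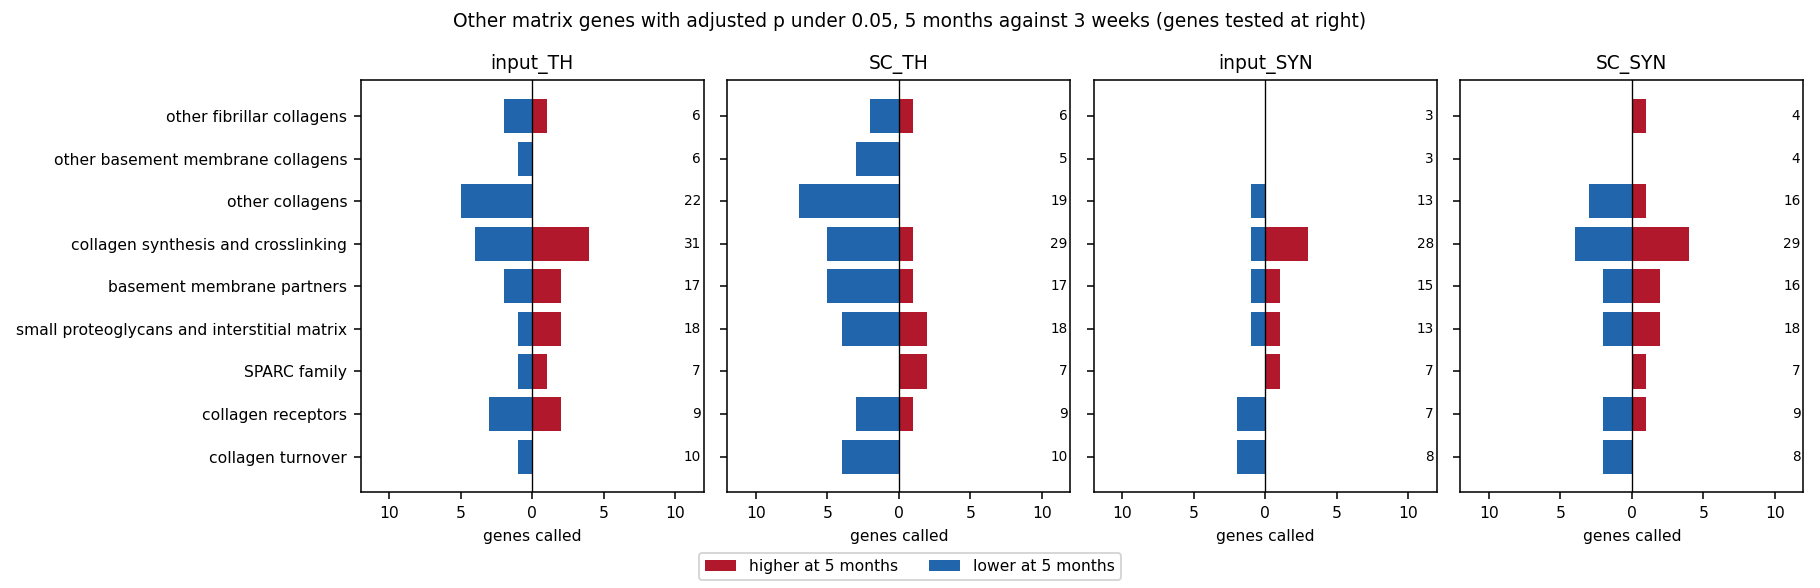
Number of other matrix genes called (edgeR, adjusted p under 0.05) as higher (red) or lower (blue) at 5m than at 3w, in each of 9 lists and 4 fractions, with the number tested at the right of each bar. Over all lists SC_TH has 33 lower against 8 higher calls, and input_TH 20 against 12 with mouse 191 kept, as plotted, or 41 against 8 without it.

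For 18m against 5m, 6 other matrix genes rose and 2 fell of 126 in input_TH, a smaller share than the 15.5% called over all genes, and 22 and 2 of 127 without mouse 191, against 18.2%. Col2a1, a fibrillar chain best known from cartilage, rose there by 0.91 ± 0.19 (2.98 ± 0.73 to 5.41 ± 0.69 CPM), Adgrg1, an adhesion receptor that binds type III collagen, by 0.42 ± 0.07 and Col25a1, a neuronal transmembrane collagen, by 0.33 ± 0.08, while P4ha1 fell by -0.38 ± 0.09. In SC_TH 1 rose (Adgrg1, 0.49 ± 0.12) and 1 fell (Col11a2, the other type XI chain, -0.57 ± 0.14) of 120, against 2.17% of all genes. In input_SYN edgeR called 0 of 97 (9 at an unadjusted p under 0.05, 1 by DESeq2) and in SC_SYN 0 of 111 (32 unadjusted, 6 by DESeq2). Over all genes edgeR called 0.139% and 0.014% in those fractions. There 1214 of 12975 and 2474 of 14240 genes had an unadjusted p under 0.05.

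Between fractions, 54 other matrix genes were called higher and 39 lower of 124 in input_SYN against input_TH, a smaller share than the 84.1% called over all genes, and with library totals in place of TMM 36 higher and 62 lower. Sparcl1, the nearest relative of Sparc and an astrocyte product, was higher by 2.49 ± 0.07 (711 ± 39 to 2658 ± 534 CPM, n = 12), Timp2 by 2.15 ± 0.05 and Spock3 by 2.1 ± 0.09. Col24a1 (-2.55 ± 0.19), Tinagl1 (-2.30 ± 0.34) and Itga1 (-2.07 ± 0.18) were lower. All 7 genes of the SPARC family were called higher in input_SYN and in SC_SYN against the matching TH fraction, as were 36.7% and 36.9% of all genes. In SC_SYN against SC_TH 97 were higher and 9 lower of 122 (58 and 19 with library totals), where 36.9% of all genes were called higher and 42.3% lower, among them Sparcl1 (1.79 ± 0.10) and Lamb1 (1.62 ± 0.08) higher and Itga1 (-1.11 ± 0.15) lower.

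In SC_TH against input_TH 30 other matrix genes were higher and 58 lower of 127, where 35.6% of all genes were called higher and 40.2% lower. Without mouse 191 39 were higher and 50 lower of 126. Sparcl1 (1.72 ± 0.05), P4hb, a subunit of prolyl hydroxylase and a disulphide isomerase (0.74 ± 0.04), and Timp2 (0.70 ± 0.04) were higher, and Col24a1 (-3.35 ± 0.13), Col7a1 (-3.33 ± 0.15) and Col5a3 (-2.30 ± 0.15) were lower. All 6 other fibrillar and all 6 other basement membrane collagens were called lower in the pellet, as were 40.2% of all genes. In SC_SYN against input_SYN 41 were higher and 3 lower of 111, where 21.8% of all genes were called higher and 21.5% lower, with Lama2 at 0.65 ± 0.08. In the interaction of age with SC against input in TH, 3 of 127 were called, Eln (-2.82), Ctsk (-1.07) and Spock1 (0.39), which are named here after their values were seen. Without mouse 191 1 of 126 was called, and none of these 3 passed the threshold. In the other 3 interactions edgeR called 0 of 124 (input; 7 unadjusted, 0 by DESeq2), 0 of 122 (SC; 26 unadjusted, 2 by DESeq2) and 0 of 111 (SYN; 3 unadjusted, 0 by DESeq2). The unadjusted counts over all genes were 1437 of 17860, 1324 of 16630 and 473 of 14301.

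Markers of the cells that could carry collagen RNA were measured beside them. In SC_TH the 13 fibroblast markers summed to 165 to 198 CPM at 3w, 123 to 174 at 5m and 118 to 188 at 18m, with 1 of 10 tested higher (Mgp) and 1 lower (Igf2) at 5m than at 3w. The 15 endothelial markers summed to 322 to 368, 269 to 346 and 236 to 281 CPM, with 5 of 15 lower. The 12 markers of pericytes and smooth muscle summed to 177 to 219, 135 to 177 and 147 to 171 CPM, with 3 of 11 lower. Over all genes tested for 5m against 3w, 9.48% were called higher and 8.46% lower in SC_TH, and 8.05% in either direction in SC_SYN. In SC_SYN the fibroblast markers summed to 101 to 143, 110 to 163 and 101 to 127 CPM, with 0 of 9 called by edgeR (1 at an unadjusted p under 0.05, DESeq2 not run on this list). Over all genes, 3723 of 14240 had an unadjusted p under 0.05 in that comparison. None of the fibroblast or endothelial markers was at 0 in all 4 libraries of a 3w or 5m group. Markers of other cells also differed in SC_TH between 3w and 5m without overlap. Oligodendrocyte markers summed to 4618 to 5809 CPM at 3w and 2320 to 2513 at 5m, oligodendrocyte precursor markers to 284 to 301 and 185 to 212, erythrocyte markers to 485 to 746 and 289 to 461, cycling cell markers to 12.8 to 16 and 4.65 to 7.01, and astrocyte markers to 7571 to 8118 and 6299 to 7175. Microglia markers (341 to 403 and 398 to 507) and neuron markers (9172 to 9966 and 9442 to 10092) overlapped. The part of all these lists in the differences of the 10 genes was not tested. Astrocyte markers, which the fractions carry at far higher levels, summed to 4629 to 6210 CPM in input_TH and 10442 to 13706 in input_SYN, and endothelial markers to 397 to 688 and 123 to 175.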

How the data were processed

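RNA from 4 fractions of the cortex of 12 mice was sequenced in 48 libraries. The authors deposited raw read counts per gene. They prepared strand-specific, ribosomal RNA-depleted libraries with molecular identifiers, converted base calls with bcl2fastq 2.20.0.422, aligned single reads with TopHat2 2.1 to GRCm38 and counted them over exons with featureCounts without using strand. Whether reads sharing an identifier were merged is not given in the sources used here, so counting error may be understated. Replicates were separate mice and were not pooled.

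Of 48526 genes, 48144 were paired with symbols from mouse GENCODE, and the rest held 0.0596% of counts. Counts were fitted on the whole table with edgeR 4.0.16 in R 4.3.3, using filterByExpr, TMM scaling, the quasi-likelihood test and Benjamini-Hochberg adjustment at 0.05. Age was fitted on the 12 libraries of a fraction. Fractions and their interactions with age were fitted on 24. The fit was tested on simulated data. CPM values use the total count of a library and are not TMM scaled. The 10 genes and all lists were chosen with earlier results of these data known. Other matrix genes were named where the adjusted p was under 0.05, the higher group averaged at least 50 counts and the groups did not overlap, up to 3 per direction in each comparison. One gene that this rule selects is not reported here. Alternatives were DESeq2 1.42.0, library totals in place of TMM, 2 other filters on low counts, the mouse as a block and leaving out each mouse. Leaving out only the input_TH library of mouse 191 was added after the data were seen.

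The 4 libraries of a mouse share its number in the labels, which pairs the samples. After subtracting each group's mean, libraries of 1 mouse correlated with a median that lay between -0.05 and 0.17 over the 6 pairs of fractions.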

Additional observations from a re-analysis of the deposited data

Results flagged for a closer look

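In 9 of 120 groups of 4 libraries 1 library lay farther from the other 3 than Dixon's 95% limit allows, where chance flags about 1 group in 20. The input_TH library of mouse 191 (5m) accounted for 6 of them, with Col1a1 at 117 CPM (others 17.4 to 24.5), Col1a2 at 146 (21.6 to 30.4), Col3a1 at 34.8 (2.68 to 6.97), Col11a1 at 19.1 (16.4 to 16.7), Sparc at 202 (115 to 130) and Serpinh1 at 34.8 (11.3 to 14.6). The SC_SYN library of the same mouse gave Col1a2 at 97.1 CPM (42.8 to 51.5). Mouse 198 (18m) had Col1a1 at 38.8 CPM in SC_TH, above 23.7 to 24.2 in its group. Mouse 189 (3w) had Col4a1 at 25.5 CPM in input_SYN, below 34.3 to 35.6.

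The difference between 5m and 3w differed between SC_TH and input_TH, by the interaction term of the edgeR fit, for 3 other matrix genes. Eln differed by -2.82 ± 0.70 on the log2 scale (adjusted p = 0.032), with -2.61 in SC_TH and 0.19 ± 0.53 in input_TH. Without mouse 191 it differed by -1.15 (adjusted p = 0.0603), and without only the input_TH library of that mouse by -1.30. The input_TH libraries held 10.1 to 111.5 CPM of Eln at 5m against 26.0 to 42.8 at 3w. Ctsk differed by -1.07 ± 0.28 (adjusted p = 0.0407), with -1.56 in SC_TH and -0.51 in input_TH. Spock1 differed by 0.39 ± 0.10 (adjusted p = 0.0463), with 0.38 in SC_TH and -0.03 in input_TH, and was past the threshold no longer with the mouse as a block (adjusted p = 0.0538). Over the 12 fits that each left out 1 mouse, the highest adjusted p was 0.12 for Eln, 0.142 for Ctsk and 0.173 for Spock1.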

How the results depend on the processing

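Of the alternative counts of called genes, 460 stayed within 1.5 times the count in the report and 76 did not, and the cause was not tested. The share of all genes called under each of these settings is not given here. That share can move with the setting too, so the counts below do not show a change particular to these genes. Genes called are given first for the 10 collagen genes and then for the other matrix genes. Without a filter on low counts they were 6 of the 10 for input_TH 5m against 3w, 2 and 26 for input_TH 18m against 5m, 4 other matrix genes for SC_TH, 1 for input_SYN and 2 for SC_SYN at 18m against 5m, 1 other matrix gene for the input interaction, 2 and 1 for the SC interaction, and 2 and 10 for the TH interaction. With at least 10 counts in every library they were 1 of 9 collagen genes for input_SYN 5m against 3w, and 47 of 56 other matrix genes for input_SYN against input_TH. DESeq2 called 4 other matrix genes for SC_TH, 1 for input_SYN, and 3 and 6 for SC_SYN at 18m against 5m, 2 and 2 for the SC interaction and 6 other matrix genes for the TH interaction. With library totals in place of TMM, 0 collagen genes were called for input_TH 18m against 5m and 5 for SC_SYN against SC_TH, where Col4a1 turned to -0.40 and Col5a1 to -0.073.

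With the mouse as a block, 1 collagen gene (Col4a1) and 1 other matrix gene were called for the SC interaction, and Col4a1 for the TH interaction. The pairing also brought Col1a2 (0.36) and Col3a1 (-0.60) past the threshold for input_SYN against input_TH and Col4a1 (0.15) for SC_SYN against SC_TH. It changed no other call among the 10 genes, and of the named matrix genes it took Spock1 below the threshold in the TH interaction (0.38).

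Leaving out 1 mouse at a time, the 10 genes gave 1 to 9 calls for input_TH 5m against 3w, 1 to 3 for SC_SYN 5m against 3w, 0 to 5 for input_TH and 0 to 2 for SC_TH at 18m against 5m, and 0 to 1 for the TH interaction. The other matrix genes gave 23 to 49, 8 to 17 and 16 to 27 calls for input_TH, input_SYN and SC_SYN at 5m against 3w, 6 to 24 and 0 to 5 for input_TH and SC_TH at 18m against 5m, and 0 to 7 for the TH interaction. With all mice kept, 11.8%, 3.22% and 8.05% of all genes were called for input_TH, input_SYN and SC_SYN at 5m against 3w. The shares were 15.5% and 2.17% for input_TH and SC_TH at 18m against 5m, and 2.33% for the TH interaction. The highest counts in input_TH came without mouse 191. Col1a1 ranged from -0.70 to 0.58 for input_TH 18m against 5m, and for SC_TH against input_TH Col1a1 ranged from -0.25 to 0.20 and Col1a2 from -0.27 to 0.22, positive without mouse 191. Depth limits Col3a1 and Col11a1 most in input_SYN.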
